A study of Mus musculus with 9 samples.

Results

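The calpain, calpastatin and PARP genes are 10 genes of protein cleavage and of poly(ADP-ribose) signalling: the calpain catalytic subunits Capn1, Capn2, Capn3, Capn5, Capn7 and Capn10, the small regulatory subunit Capns1, the calpain inhibitor Cast (calpastatin), and the poly(ADP-ribose) polymerases Parp1 and Parp2. They were picked by gene symbol as genes tied to rod death driven by cyclic GMP (cGMP), and all 10 of 10 symbols were found among the 21769 genes listed. Polyadenylated RNA of whole mouse retina was sequenced in 9 libraries, with 3 rd10, 3 GFP-expressing and 3 wild type libraries and 2 retinae in each. In rd10 mice a mutation lies in Pde6b, a catalytic subunit of the rod phosphodiesterase, and rods are lost after birth; the rd10 retina is called degenerated in the labels. The GFP-expressing and wild type retinae are both called normal. The rd10 mice were taken at postnatal day 61, a line written as Gg13 at day 42 and the wild type mice at day 48; Gg13 was read here as the GFP group, which has no other age. Age thus followed genotype and cannot be told apart from it. The labels used here name no promoter for GFP, no strain background and no sex. The replicates are called biological in the series text, but no label says which mouse a retina came from.

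Calpains are cysteine proteases that are switched on by calcium. The conventional calpains 1 and 2 each pair a catalytic subunit (Capn1 or Capn2) with Capns1, and calpastatin binds and blocks both of them. PARP1 and PARP2 sense DNA breaks and build chains of ADP-ribose from NAD. In rods that lack phosphodiesterase activity, cGMP is known to accumulate and to hold cation channels open, and raised calpain and PARP activity has been described in such dying rods. RNA levels, which were measured here, do not show enzyme activity.

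Levels are given in CPM, counts scaled to a total of 1000000 per library, after TMM scaling (edgeR's trimmed mean of log ratios) between libraries, and ± gives the SD over 3 libraries. A gene was called higher or lower at an adjusted p under 0.05 by edgeR's quasi-likelihood F-test, fitted to 14300 genes, with Benjamini-Hochberg adjustment over all of them. All 10 genes were among those 14300, but Capn3 passed the filter on low counts only through rd10: 3 rd10 libraries, 0 GFP libraries and 1 wild type library reached its minimum of 0.921 CPM (before TMM scaling), while the other 9 genes reached it in all libraries. Library totals lay between 9597635 and 12149448 counts, so 1 CPM stood for about 10 counts. The summed level of 8 rod markers was 338 to 755 CPM in rd10, 39655 to 45051 CPM in GFP and 39056 to 50137 CPM in wild type libraries, so the retina labelled degenerated had few rod transcripts at its age. Summed Müller glia markers (7 genes) were 7978 to 8603 CPM in rd10, against 4629 to 5569 in GFP and 3756 to 5125 in wild type, and summed microglia markers (11 genes) were 193 to 225 CPM in rd10, against 49.9 to 71.9 in GFP and 60.1 to 74.2 in wild type. None of the 8, 7 and 11 markers was at 0 in a whole group. In whole retina, fewer cells of a type and less RNA per cell cannot be told apart. Summed bipolar (6 genes), amacrine (5 genes) and ganglion cell markers (5 genes) were also higher in rd10, without overlap. They were 1923 to 2503, 1306 to 1370 and 892 to 1055 CPM in rd10. In GFP they were 1044 to 1338, 825 to 906 and 664 to 686 CPM. In wild type they were 988 to 1317, 838 to 927 and 637 to 736 CPM. Cone markers (6 genes) summed to 1149 to 1194 CPM in rd10, 1050 to 1368 in GFP and 1260 to 1710 in wild type. The make-up of the libraries thus moved with genotype, and its part in the differences given below was not tested. Lens transcripts (18 genes) summed to 5004 CPM in rd10 2, 4021 in GFP 1, and 4687 and 2030 in wild type 2 and 3, and to 5.15 to 57.4 CPM in the other libraries. GFP 2 and wild type 3 stood apart on the second principal component, at 54.5 and 28.6, against -37.8 to -8.44 in the other normal libraries.

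The genes lie on 6 mouse chromosomes (mm9, positions from the deposited files): Capn10 at chr1:94830985-94844525, Parp1 at chr1:182499106-182531385 and Capn2 at chr1:184397390-184447614, Capn3 at chr2:120289329-120330655, Capns1 at chr7:30971961-30980067 and Capn5 at chr7:105270075-105326703, Cast at chr13:74831734-74945369, Capn7 at chr14:32149910-32185169 and Parp2 at chr14:51427621-51440975, and Capn1 at chr19:5988545-6015825. Proximal promoters are shown for Capn2, Capn10, Cast, Parp1 and Parp2, whose calls the results turn on, as the 250 bases before an annotated start (RefSeq, GRCm38.p6, strand of the gene, 5′ to 3′). Windows were found for 9 of the 10 genes, 14 windows in all; for Capn5 none is shown. The motifs searched, on both strands, were GGGCGG (the GC box of Sp factors), TTCNNNGAA (a STAT-type site), TAATCC (the core bound by the photoreceptor factor CRX) and TGACGTCA (the cAMP response element), and matches are in capitals. Among 32851 windows of the same length, these motifs were held by 32.7%, 7.02%, 6.25% and 1.55%.
Capn2 (chr1:182517611-182517860, minus strand): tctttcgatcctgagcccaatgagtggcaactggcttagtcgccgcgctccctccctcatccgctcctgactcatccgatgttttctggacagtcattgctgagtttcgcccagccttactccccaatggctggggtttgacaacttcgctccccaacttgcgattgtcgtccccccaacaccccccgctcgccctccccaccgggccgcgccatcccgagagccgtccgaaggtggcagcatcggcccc
Capn10 (chr1:92934158-92934407, plus strand): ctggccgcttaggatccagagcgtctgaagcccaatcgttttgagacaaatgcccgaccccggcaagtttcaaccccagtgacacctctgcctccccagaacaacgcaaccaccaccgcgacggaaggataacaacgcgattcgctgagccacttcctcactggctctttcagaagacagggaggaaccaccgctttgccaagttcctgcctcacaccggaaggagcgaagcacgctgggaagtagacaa
Cast, start 1 (chr13:74808761-74809010, minus strand): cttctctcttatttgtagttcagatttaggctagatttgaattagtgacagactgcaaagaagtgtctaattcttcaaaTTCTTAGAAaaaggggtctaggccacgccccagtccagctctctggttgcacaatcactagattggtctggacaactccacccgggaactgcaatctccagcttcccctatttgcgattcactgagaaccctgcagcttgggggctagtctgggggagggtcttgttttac
Cast, start 2 (chr13:74807961-74808210, minus strand): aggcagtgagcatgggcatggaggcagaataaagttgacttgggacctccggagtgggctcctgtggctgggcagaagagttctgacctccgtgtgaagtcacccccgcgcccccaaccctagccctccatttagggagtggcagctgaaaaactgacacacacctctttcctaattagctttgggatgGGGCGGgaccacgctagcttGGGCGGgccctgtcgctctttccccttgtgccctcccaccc
Parp1 (chr1:180568641-180568890, plus strand): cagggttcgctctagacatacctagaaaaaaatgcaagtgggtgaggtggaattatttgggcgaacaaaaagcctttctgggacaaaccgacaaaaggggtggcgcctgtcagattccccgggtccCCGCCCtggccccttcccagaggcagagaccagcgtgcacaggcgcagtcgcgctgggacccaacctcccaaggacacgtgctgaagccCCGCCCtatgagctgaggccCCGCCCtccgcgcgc
Parp2 (chr14:50807666-50807915, plus strand): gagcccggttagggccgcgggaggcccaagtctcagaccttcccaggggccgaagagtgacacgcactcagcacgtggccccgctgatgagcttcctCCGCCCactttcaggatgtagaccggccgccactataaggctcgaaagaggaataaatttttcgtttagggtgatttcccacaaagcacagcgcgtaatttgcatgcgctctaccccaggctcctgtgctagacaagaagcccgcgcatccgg
The Capn2 and Capn10 windows hold none of the 4 motifs. They hold 19 and 16 CG dinucleotides, against 16 and 18 in the Parp1 and Parp2 windows and 3 and 8 at Cast starts 1 and 2. The Parp1 window holds 3 GC boxes and the Parp2 window 1. The window of Cast start 1 holds a STAT-type site and that of start 2 holds 2 GC boxes; Cast has 2 more windows, at starts 3 and 4, which hold none of the motifs and are not shown. TAATCC and TGACGTCA matched in none of the 14 windows of the 9 genes. The counts are per gene, so which start a library used is not known from them.

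Between rd10 and wild type retina, 3 of the 10 genes were called higher (Capn2, Capn5 and Cast), 2 were called lower (Capn10 and Parp2) and 5 did not pass. Of all genes tested, 28.4% were called, 14.5% higher and 13.9% lower. The 3 rd10 libraries did not overlap the 3 wild type libraries for any of the 10 genes, with 6 higher and 4 lower; of all genes, 50.5% did not overlap, 26.1% higher and 24.4% lower. Between rd10 and GFP retina, 3 genes were called higher (Capn2, Capn3 and Capn5) and 3 lower (Capn7, Capn10 and Parp1), and 4 did not pass; of all genes tested, 30.2% were called, 15.2% higher and 15.0% lower. There 9 of 10 genes did not overlap, 6 higher and 3 lower, against 48.2% of all genes, 25.1% higher and 23.1% lower. The median log2 fold change of the 10 genes was 0.54 against wild type and 0.59 against GFP, with medians of -0.03 and -0.02 over all genes tested. Without Capn3, 3 of 9 genes were higher and 2 lower against wild type (median 0.35) and 2 of 9 higher and 3 lower against GFP (median 0.46). These comparisons share the rd10 libraries and are given side by side, not as support for each other. Scaling by library totals moves the median of all genes to 0.25 and 0.31, and the share of higher calls to 77.0% against wild type, where it was 51.0%, and to 79.3% against GFP, where it was 50.4%. On that scale 5 of the 10 genes were higher and 1 lower against wild type (median 0.82), and 6 higher and 1 lower against GFP (median 0.92). No log2 fold change of the 10 genes changed its sign under any of 15 alternative settings of either comparison. These settings reuse the same libraries, and without overlap between groups, leaving libraries out could hardly change a sign.

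**Figure D1:**
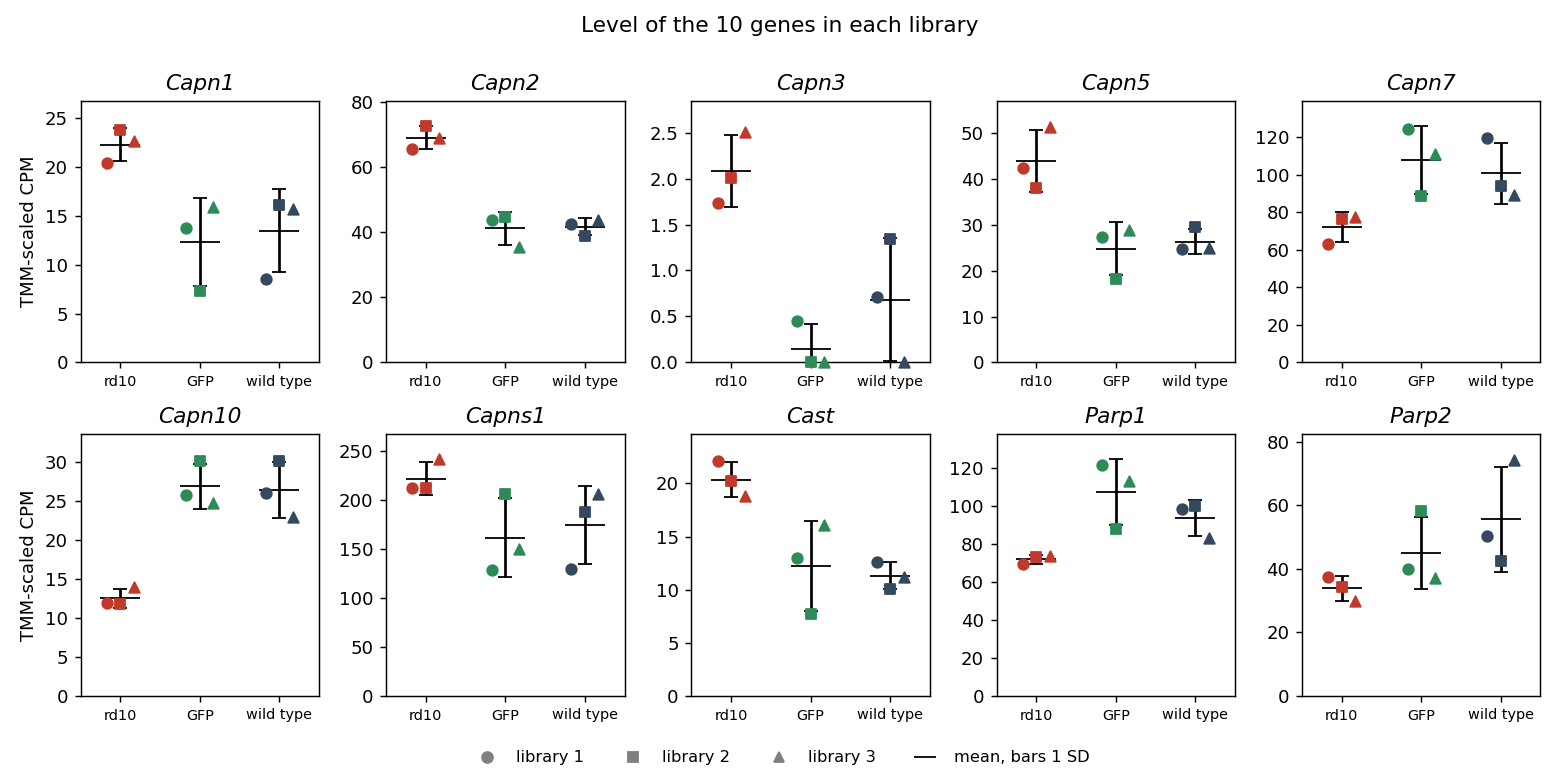
TMM-scaled CPM (y axis, from 0, a separate scale per panel) of the 10 genes in each of 3 rd10, 3 GFP and 3 wild type libraries; points are libraries, the horizontal line is the mean and the bars are 1 SD. The rd10 points of Capn1, Capn2, Capn3, Capn5, Capns1 and Cast lie above all normal libraries, those of Capn7, Capn10 and Parp1 lie below, and those of Parp2 reach into the GFP range.

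Among the conventional calpain genes, Capn2, the catalytic subunit of calpain 2, was higher in rd10 retina. Its level was 65.5, 72.6 and 69.1 CPM in the rd10 libraries, 43.8, 44.6 and 35.4 CPM in GFP and 42.4, 38.8 and 43.9 CPM in wild type. Each rd10 library exceeded each normal library, and the groups did not overlap. The log2 fold change was 0.73 (SE 0.15, adjusted p = 0.00510, 1.66-fold) against wild type and 0.74 (SE 0.15, adjusted p = 0.00437, 1.68-fold) against GFP. The call held in both comparisons when any single library of the groups compared was left out. Without the 4 libraries that carried lens transcripts, which leaves 2 rd10, 2 GFP and 1 wild type library, it was 0.66 against wild type (adjusted p = 0.291) and 0.75 against GFP (adjusted p = 0.0794), and neither passed.

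Capn1, the catalytic subunit of calpain 1, had a difference of like size with more spread. Its level was 20.5, 23.8 and 22.6 CPM in rd10, 13.8, 7.33 and 15.9 CPM in GFP and 8.58, 16.2 and 15.7 CPM in wild type. The rd10 libraries lay above all normal ones, but GFP 2 and wild type 1 stood well below the others of their groups. Its log2 fold change was 0.72 (SE 0.31, adjusted p = 0.0994) against wild type and 0.85 (SE 0.31, adjusted p = 0.0582) against GFP, and neither passed. Scaled by library totals, both passed, with 1.01 (0.0281) and 1.17 (0.0133) as log2 fold changes and adjusted p; a fit to rd10 and wild type alone (adjusted p = 0.0403) and DESeq2 against GFP (adjusted p = 0.0301) also called it. Without GFP 2 and wild type 3, left out after the data were seen, it passed against wild type, at 0.84 (adjusted p = 0.0285).

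Capns1, the small subunit shared by calpains 1 and 2, had the highest counts of the 10 genes. It was at 212, 212 and 241 CPM in rd10, 128, 206 and 150 CPM in GFP, and 129, 188 and 206 CPM in wild type. The highest GFP and wild type libraries came close to the lowest rd10 libraries without reaching them. Against wild type the log2 fold change was 0.35 (SE 0.22, adjusted p = 0.250) and against GFP 0.46 (SE 0.22, adjusted p = 0.131), and neither passed. Capns1 has the shortest merged exon length of the 10 genes, 2.48 kb, and the normal libraries with a high Capns1 level were those in which long genes were low: the slope of log2 level on gene length, per doubling over 11612 genes, was -0.275 in GFP 2, -0.193 in wild type 3 and -0.111 in wild type 2, against 0.036 to 0.127 in the other normal libraries. In rd10 the slopes were 0.079, 0.0243 and 0.188. With the trend on length removed, Capns1 passed at 0.45 (adjusted p = 0.0389) against wild type and 0.53 (adjusted p = 0.0193) against GFP. Scaled by library totals it passed as well, at 0.63 against wild type (adjusted p = 0.0449) and 0.79 against GFP (adjusted p = 0.0159), and, against GFP, without GFP 2 (0.67, adjusted p = 0.0271).

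**Figure D2:**
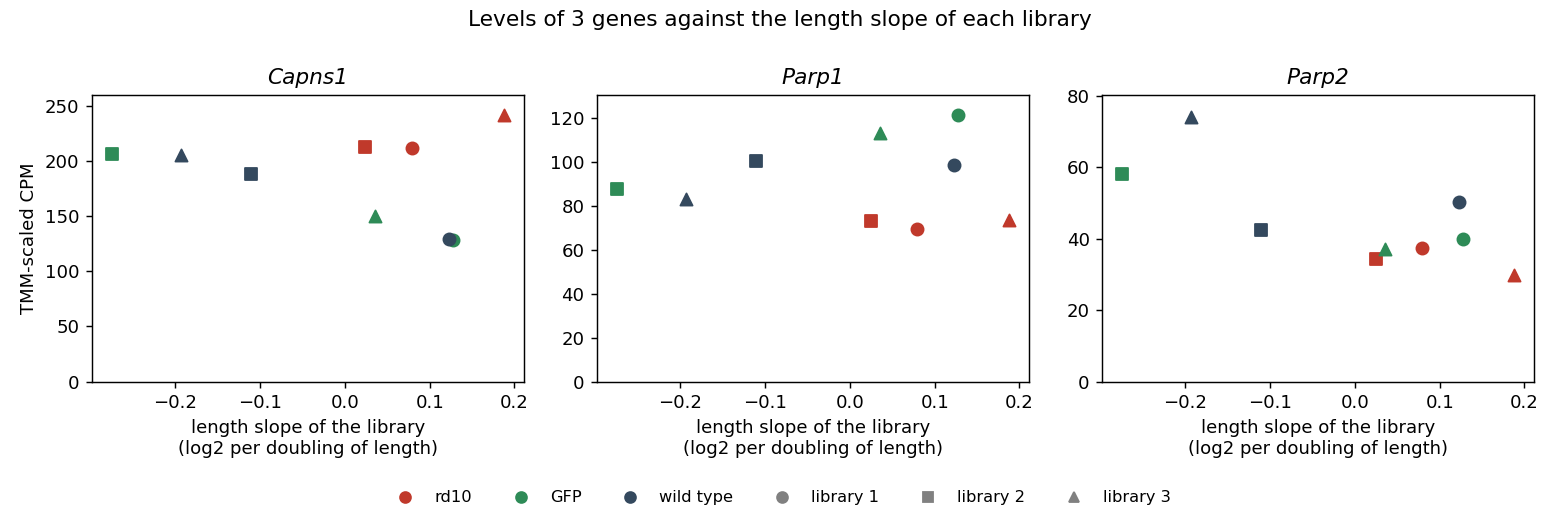
Levels of Capns1, Parp1 and Parp2 (y axis, TMM-scaled CPM, from 0, a separate scale per panel) against the slope of log2 level on merged exon length in the same library (x axis, log2 per doubling of length), with 1 point per library, coloured by group. Among the 6 normal libraries the Capns1 level was higher where the slope was lower, from GFP 2 at -0.275 and 206 CPM to GFP 1 at 0.127 and 128 CPM, while the rd10 libraries lie at 212 to 241 CPM at slopes of 0.0243 to 0.188.

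Cast, the inhibitor of calpains 1 and 2, was higher in rd10 than in wild type retina. Its level was 22.1, 20.2 and 18.8 CPM in rd10, 13.0, 7.67 and 16.1 CPM in GFP and 12.6, 10.1 and 11.2 CPM in wild type. The lowest rd10 library lay above all normal libraries. The log2 fold change was 0.85 (SE 0.26, adjusted p = 0.0313, 1.80-fold) against wild type and 0.73 (SE 0.25, adjusted p = 0.0513) against GFP, where it did not pass. The call against wild type rested on single libraries: it ended without rd10 1 (adjusted p = 0.0950), rd10 2 (0.0721), rd10 3 (0.0598), wild type 2 (0.0984) or wild type 3 (0.0803), and without the 4 libraries with lens transcripts (0.476). Against GFP the gene passed with library totals (1.06, adjusted p = 0.0101), with DESeq2 (adjusted p = 0.0280) and without GFP 3 (0.98, adjusted p = 0.0330).

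The balance of protease and inhibitor transcripts within a library does not depend on library scaling, but it is not freed of the length trend given above. Merged exons are 11.5 kb long for Cast, 3.34 kb for Capn1 and 6.34 kb for Capn2. The part of that trend in the ratios was not tested. Capn1 counts were 0.925, 1.18 and 1.20 times the Cast counts in the rd10 libraries, 1.06, 0.955 and 0.988 times in GFP and 0.680, 1.60 and 1.40 times in wild type. Capn2 counts were 2.96, 3.60 and 3.67 times the Cast counts in rd10, 3.38, 5.81 and 2.20 times in GFP and 3.36, 3.85 and 3.91 times in wild type. The ratios overlapped in every pair of groups. Capn2 was thus higher in rd10 while its ratio to Cast, with a log2 difference of -0.12 against wild type (exact permutation test, two-sided, p = 0.5) and -0.05 against GFP (exact p = 1), was not shown to differ. The ratio of Capn1 to Cast differed by -0.07 against wild type (exact p = 1) and 0.13 against GFP (exact p = 0.4). The ratio of Capn2 to Capn1 was 3.20, 3.05 and 3.05 in rd10, 3.18, 6.08 and 2.22 in GFP and 4.94, 2.40 and 2.79 in wild type, which is a narrow range in rd10 inside a wide one in the normal groups. Its log2 difference was -0.05 against wild type (exact p = 1) and -0.17 against GFP (exact p = 0.8). In all, 12 such tests were run, 4 ratios in 3 pairs of groups, all with an adjusted p of 1, and 3 libraries against 3 cannot give an exact p below 0.1, so these tests could not pass at 0.05.

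**Figure D3:**
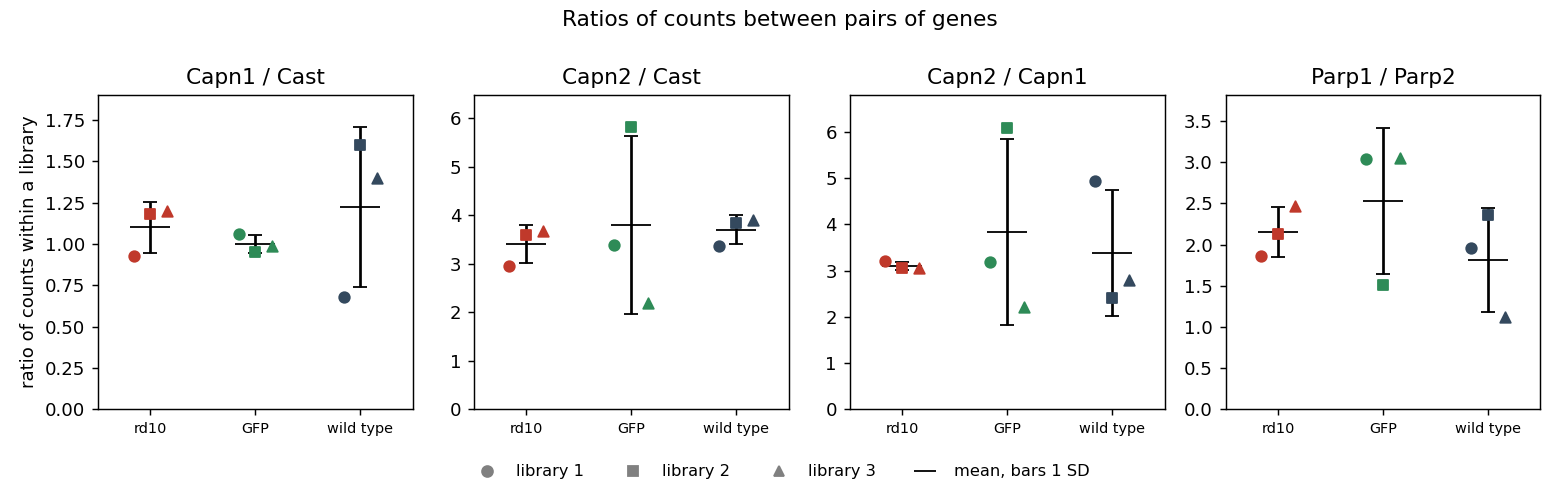
Ratio of counts within each library (y axis, linear, from 0, a separate scale per panel) for Capn1 to Cast, Capn2 to Cast, Capn2 to Capn1 and Parp1 to Parp2 in the 3 rd10, 3 GFP and 3 wild type libraries; points are libraries, the horizontal line is the mean and the bars are 1 SD. The groups overlap in every panel, and the Capn2 to Capn1 ratio runs over 3.05 to 3.20 in rd10, against 2.22 to 6.08 in GFP and 2.40 to 4.94 in wild type.

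The other calpain genes went both ways. Capn5, a calpain without the domain that binds Capns1 and known from human inherited eye disease, was at 42.4, 38.0 and 51.2 CPM in rd10, 27.4, 18.2 and 28.8 CPM in GFP and 24.6, 29.4 and 24.955 CPM in wild type. All rd10 libraries lay above all normal ones. The log2 fold change was 0.74 (SE 0.21, adjusted p = 0.0244, 1.67-fold) against wild type and 0.82 (SE 0.21, adjusted p = 0.0148, 1.77-fold) against GFP. The call against wild type ended without rd10 1 (adjusted p = 0.0562), rd10 3 (0.0832), wild type 1 (0.0584) or wild type 3 (0.0759), and the call against GFP without rd10 3 (0.0579). Without the 4 libraries with lens transcripts the log2 fold change was 0.92 against wild type (adjusted p = 0.254) and 0.99 against GFP (adjusted p = 0.0697). Omp overlaps Capn5 on the same strand and had 0 to 2 counts per library.

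Capn10, a calpain that also lacks the Capns1-binding domain and has been studied as a diabetes gene in humans, was lower in rd10. It was at 11.9, 11.7 and 13.9 CPM in rd10, 25.7, 30.1 and 24.7 CPM in GFP and 26.0, 30.1 and 23.0 CPM in wild type. The highest rd10 library stood far below the lowest normal one. In log2 terms the change was -1.07 (SE 0.18, adjusted p = 0.00201, 2.10-fold lower) against wild type and -1.10 (SE 0.18, adjusted p = 0.00173, 2.14-fold lower) against GFP, the largest change among the 10 genes apart from Capn3. The call held in both comparisons when any single library of the groups compared was left out. Without the 4 libraries with lens transcripts it held against GFP (adjusted p = 0.0448) and ended against wild type (-1.01, adjusted p = 0.1604). A transcript on the opposite strand, 9430060I03Rik, overlaps Capn10 and had 4 to 25 counts per library against 146 to 313 of Capn10; whether counting used strand is not given, so their reads cannot be told apart where they overlap.

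Capn7, a calpain with microtubule interacting and transport (MIT) domains, was at 63.2, 76.6 and 77.3 CPM in rd10, 124, 88.5 and 111 CPM in GFP and 119, 94.1 and 89.1 CPM in wild type. The rd10 libraries lay below all normal ones. Its log2 fold change was -0.58 (SE 0.18, adjusted p = 0.0314, 1.49-fold lower) against GFP and -0.48 (SE 0.18, adjusted p = 0.0644) against wild type, where it did not pass. The call against GFP ended with library totals (-0.25, adjusted p = 0.302) and without rd10 1 (0.133), rd10 2 (0.0763), rd10 3 (0.0697), GFP 1 (0.0998) or GFP 3 (0.0913), and without the 4 libraries with lens transcripts (0.181). Against wild type it passed in a fit to the pair of groups alone (adjusted p = 0.0367), with the trend on length removed (0.0252) and without GFP 2 and wild type 3 (0.0199).

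Capn3, best known as the calpain of skeletal muscle, was close to the limit of detection. It had 22, 25 and 34 counts in rd10, 5, 0 and 0 in GFP and 7, 14 and 0 in wild type, or 1.74, 2.01 and 2.51 CPM in rd10, 0.453, 0 and 0 CPM in GFP, and 0.706, 1.35 and 0 CPM in wild type. A count of 0, with a limit of 3 counts, allows up to 0.344 CPM in GFP 2, 0.286 CPM in GFP 3 and 0.301 CPM in wild type 3. The 81 counts of the rd10 libraries and the 5 of GFP give a ratio per scaled total of 12.7 (exact 95% interval 5.22 to 40.1, counting error only), and the 21 of wild type a ratio of 3.02 (1.85 to 5.14). The fitted log2 fold change was 3.60 (SE 1.11, adjusted p = 0.0326) against GFP and 1.58 (SE 0.92, adjusted p = 0.216) against wild type, which did not pass. As the gene was kept through the group in which it was high, the call is given as a description. All 5 GFP counts came from GFP 1, and without that library, against GFP libraries at 0, the fitted value was 7.54, which is no bound; with another library left out it was 3.04 to 3.72. Against wild type it was 1.01 without wild type 3 and 2.54 without wild type 2. The call against GFP ended without rd10 1 (adjusted p = 0.0675), rd10 2 (0.0676), rd10 3 (0.0860), GFP 2 (0.0554) or GFP 3 (0.0949). Capn3 is also a lens gene in mice, and the normal libraries with the most Capn3 counts in their groups carried lens transcripts: GFP 1, with 4021 CPM of them, held all 5 GFP counts, and wild type 2, with 4687 CPM, held 14 of 21. Wild type 3, with 2030 CPM, had 0, and rd10 2, with 5004 CPM, had 25, between the 22 and 34 of the other rd10 libraries. The part of lens RNA in the Capn3 counts was not tested. Skeletal muscle markers (6 genes) summed to 5.61 to 7.15 CPM in rd10, 6.29 to 12.9 in GFP and 8.75 to 12.7 in wild type. Of these 6, 2 were at 0 in all rd10 libraries, 3 in all GFP libraries and 3 in all wild type libraries.

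Both PARP genes had lower values in rd10, each with a call in a single comparison. Parp1, which makes most of the poly(ADP-ribose) after DNA damage, was at 69.3, 73.0 and 73.5 CPM in rd10, 121, 87.7 and 113 CPM in GFP and 98.4, 100.1 and 82.9 CPM in wild type. The rd10 libraries lay close together and below all normal ones. The log2 fold change was -0.58 (SE 0.16, adjusted p = 0.0187, 1.49-fold lower) against GFP and -0.38 (SE 0.16, adjusted p = 0.0882) against wild type, which did not pass. The call against GFP ended with library totals (-0.25, adjusted p = 0.229) and without rd10 1 (0.0788), rd10 2 (0.0642), rd10 3 (0.0570), GFP 1 (0.0612) or GFP 3 (0.0676), and without the 4 libraries with lens transcripts (0.182). Against wild type Parp1 passed in a fit to the pair of groups alone (adjusted p = 0.0486), with the trend on length removed (0.0237) and without GFP 2 and wild type 3 (0.0178).

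Parp2, the close relative of PARP1 in the repair of single strand breaks, was at 37.4, 34.3 and 29.7 CPM in rd10, 39.9, 58.1 and 37.1 CPM in GFP and 50.2, 42.4 and 74.1 CPM in wild type. GFP 2 and wild type 3 were the highest libraries of their groups, and rd10 1 lay above GFP 3. Its log2 fold change was -0.72 (SE 0.24, adjusted p = 0.0457, 1.64-fold lower) against wild type and -0.41 (SE 0.24, adjusted p = 0.210) against GFP, which did not pass. The call against wild type sat at the threshold and ended in 11 of 15 alternatives, among them library totals (-0.44, adjusted p = 0.219), DESeq2's size factors in the edgeR fit (0.0502), no filter on low counts (0.0503) and each library left out except wild type 2: without wild type 3 it was -0.46 (0.186), without wild type 1 -0.76 (0.0703), and without rd10 1, 2 or 3 the adjusted p was 0.0899, 0.115 and 0.1598. Without GFP 2 and wild type 3 it was -0.46 (0.0651). Rpph1, the RNA of ribonuclease P, starts 174 bases upstream on the opposite strand and had 3 to 16 counts. The ratio of Parp1 to Parp2 counts was 1.86, 2.13 and 2.47 in rd10, 3.04, 1.51 and 3.05 in GFP and 1.96, 2.36 and 1.12 in wild type, with a log2 difference of 0.31 against wild type and -0.17 against GFP (exact permutation test, two-sided, p = 0.6 for each). Merged exons are 5.29 kb long for Parp1 and 3.63 kb for Parp2, and the part of the length trend in this ratio was not tested.

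**Figure D4:**
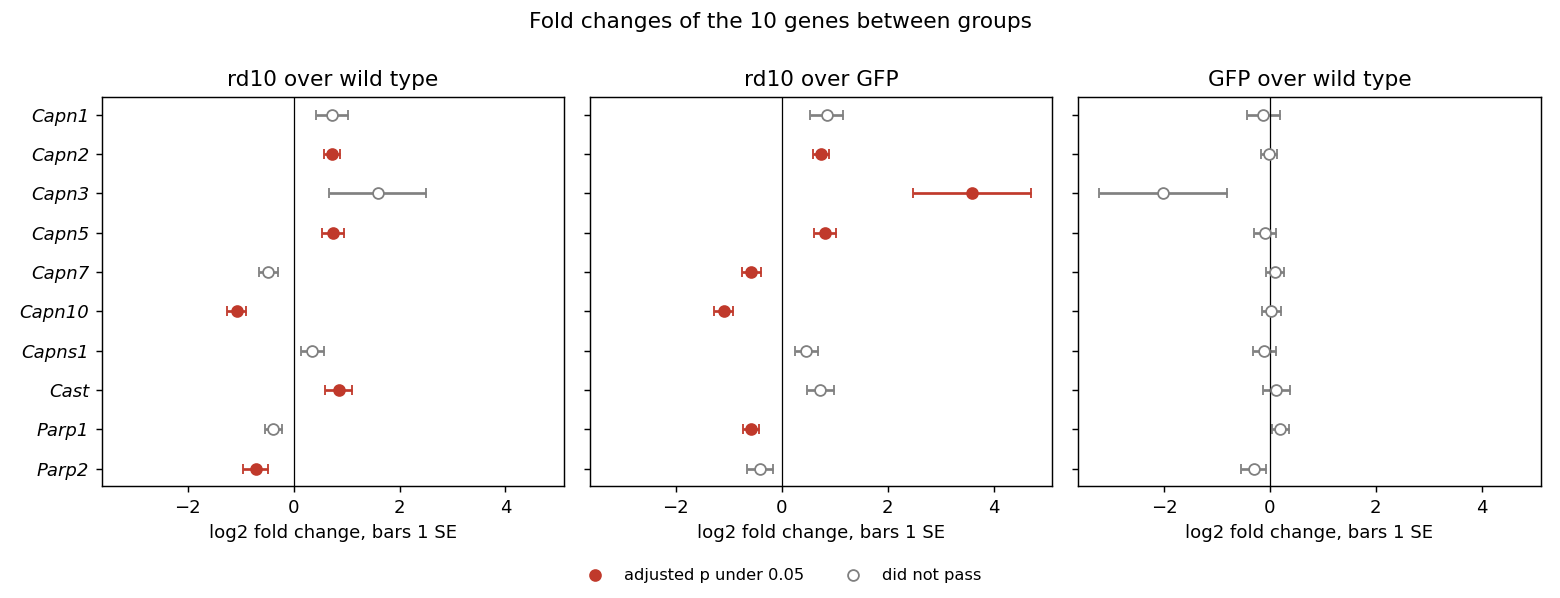
Log2 fold change (x axis, same scale in the 3 panels) of each of the 10 genes in rd10 against wild type, rd10 against GFP and GFP against wild type; bars are 1 SE of the fit and filled points passed at an adjusted p under 0.05. Capn10 lies lowest in both rd10 panels, at -1.07 and -1.10, and no gene passed in GFP against wild type.

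GFP and wild type retina, both called normal, did not differ detectably in these genes. None of the 10 genes passed in GFP against wild type by edgeR's quasi-likelihood F-test, each with an adjusted p of 1, and 0 genes of 14300 were called (0.00%), with 214 genes (1.50%) at an unadjusted p under 0.05 and 2 genes called by DESeq2. The libraries of GFP and wild type overlapped for all 10 genes, while 3.99% of all genes did not overlap. The log2 fold changes ran between -0.30 for Parp2 and 0.20 for Parp1 in 9 genes, and Capn3, with 5 counts against 21, was at -2.01. The pairs of normal means lay close: Capn2 averaged 41.2 ± 5.11 CPM in GFP and 41.7 ± 2.59 CPM in wild type, and Capn10 averaged 26.8 ± 2.89 CPM in GFP and 26.4 ± 3.58 CPM in wild type (SD, n = 3 each).

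Per kilobase of merged exon (GENCODE M21, GRCm38), Capns1 was the most abundant of the 10 genes in each group, at 89.5 CPM per kb in rd10, 65.1 in GFP and 70.3 in wild type. Capn7 and Parp1 followed and overlapped each other in all 3 groups, at 14.8 and 13.6 in rd10, 22.1 and 20.3 in GFP and 20.6 and 17.7 CPM per kb in wild type. The fourth place was held by Capn2 in rd10 (10.9 CPM per kb), and by Parp2 in GFP and wild type (12.4 and 15.3). Capn10 was eighth in rd10, at 2.88 CPM per kb, below Capn5 at 8.0 and Capn1 at 6.67, which overlapped each other. In GFP and wild type it was sixth, at 6.18 and 6.07, next to Capn2 at 6.50 and 6.57, with which it overlapped. Cast (1.78, 1.07 and 0.986 CPM per kb in rd10, GFP and wild type) and Capn3 (0.415, 0.0301 and 0.136) closed the order, without overlap with their neighbours. Neighbours that overlapped were also Parp2 with Capn5 in rd10, Parp1 with Parp2 and Capn10 with Capn5 in wild type, and Capn5 with Capn1 in all 3 groups.

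Genes that share the calpain and PARP pathways were read as lists. Of 8 other calpain genes, 2 were tested and neither passed: Solh (Capn15) averaged 38.0 CPM in rd10, 38.9 in GFP and 38.3 in wild type. Capn6, a calpain that lacks the catalytic cysteine, averaged 3.93 CPM in rd10, 1.59 in GFP and 1.70 in wild type, with a log2 fold change of 1.20 (adjusted p = 0.0756) against wild type and 1.28 (adjusted p = 0.0586) against GFP. Among 14 other PARP family genes, 4 were higher and 0 lower against wild type, and 6 were higher and 0 lower against GFP. The medians were 0.39 and 0.50. Of all genes tested, 28.4% were called against wild type, 14.5% higher, and 30.2% against GFP, 15.2% higher. The largest of the 4 was Parp14, a mono-ADP-ribosyltransferase of macrophage and interferon signalling, at 19.5, 15.3 and 22.5 CPM in rd10, 6.62, 2.63 and 6.29 CPM in GFP and 5.95, 5.38 and 7.72 CPM in wild type. Its log2 fold change was 1.59 (SE 0.33, adjusted p = 0.00575) against wild type and 1.87 (SE 0.33, adjusted p = 0.00250) against GFP. Parp9, the partner of DTX3L, was at 14.8, 15.1 and 16.2 CPM in rd10, 4.26, 7.79 and 3.72 CPM in GFP and 5.25, 6.35 and 9.22 CPM in wild type, with a log2 fold change of 1.15 against wild type (adjusted p = 0.0196) and 1.56 against GFP (adjusted p = 0.00508). Parp3, a DNA repair enzyme, had 1.30 against wild type (adjusted p = 0.0124) and 1.37 against GFP (adjusted p = 0.00943). Parp12, an interferon-stimulated gene, had 0.95 against wild type (adjusted p = 0.0128) and 0.97 against GFP (adjusted p = 0.0114). Summed microglia, Müller glia, bipolar, amacrine and ganglion cell markers moved the same way by the values given above. Their part in the PARP values was not tested. Against wild type, Parp14, Parp3 and Parp12 passed with any single library left out, and Parp9 lost its call without rd10 3, wild type 1 or wild type 2 (highest adjusted p = 0.0622). Scaled by library totals, 6 of the 14 were higher and 0 lower against wild type (median 0.68). Against GFP 8 were higher and 0 lower on that scale (median 0.83). When the 4 lens-bearing libraries were left out, 0 of the 14 passed against wild type and 2 against GFP.

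Among 15 genes of poly(ADP-ribose) removal and binding and of NAD supply, 1 was higher and 5 were lower in rd10 against wild type. Against GFP 1 was higher and 2 were lower. The medians were -0.46 against wild type and -0.39 against GFP. Of all genes tested, 28.4% were called against wild type, 13.9% lower, and 30.2% against GFP, 15.0% lower. Chd1l, a chromatin remodeller that poly(ADP-ribose) recruits, was at 13.5, 14.8 and 13.9 CPM in rd10, 25.7, 35.3 and 32.5 CPM in GFP and 37.1, 32.1 and 38.8 CPM in wild type, without overlap. Its log2 fold change was -1.35 (SE 0.18, adjusted p = 4.2e-04) against wild type and -1.14 (SE 0.18, adjusted p = 0.00119) against GFP, and it passed in all 15 alternatives of each. Nmnat2, a neuronal enzyme of NAD synthesis that protects axons, was at 83.5, 73.2 and 77.9 CPM in rd10, 41.0, 32.8 and 51.4 CPM in GFP and 41.9, 39.8 and 35.9 CPM in wild type. It had log2 fold changes of 1.00 against wild type (adjusted p = 0.00256) and 0.91 against GFP (adjusted p = 0.00403), and both calls ended without the 4 libraries with lens transcripts (adjusted p = 0.212 and 0.0641). The NAD-dependent deacetylase Sirt1 was lower, with log2 fold changes of -0.71 against wild type (adjusted p = 0.0195) and -0.78 against GFP (adjusted p = 0.0121). Macrod1, which removes ADP-ribose, had -0.87 against wild type (adjusted p = 0.0197) and -0.52 against GFP (adjusted p = 0.118), which did not pass. The Sirt1 calls ended with library totals and without the 4 libraries with lens transcripts, the one against wild type also without rd10 1, rd10 3 or wild type 1 (highest adjusted p = 0.0945) and the one against GFP also without rd10 3 (0.0591). The Macrod1 call against wild type ended with library totals, with the trend on length removed, without the lens-bearing libraries, and without rd10 1, rd10 2, wild type 2 or wild type 3 (highest with 1 library left out 0.0855). With library totals the medians of this list moved to -0.18 and -0.06 and its counts to 2 higher and 1 lower against wild type and 3 higher and 1 lower against GFP.

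Most genes of cGMP and of calcium entry or exit were lower, 12 of 16 against wild type and 12 of 16 against GFP. Of the others, 2 and 1 were higher, and the medians were -4.13 and -4.27. Among the lower genes the changes of Cacna2d4 and Cacna1f were the smallest, -0.96 and -1.36 against wild type and -0.94 and -1.37 against GFP. The Cacna2d4 call held in 9 of 15 alternatives of each comparison. Of all genes tested, 13.9% were lower against wild type and 15.0% against GFP. The list shares 3 genes (Pde6a, Pde6b and Cnga1) with the rod list and holds other rod genes, such as Cngb1. The part of rod loss in its values was not tested. Against wild type Atp2b2 (log2 fold change 1.03, adjusted p = 0.0129) and Prkg2 (0.71, 0.0460) were higher. Atp2b2 was also higher against GFP (0.97, 0.0163). Prkg1 (1.50, 0.0583) and Atp2b1 (0.14, 0.566) did not pass against wild type. With 1 library left out, the Atp2b2 call against wild type held in 3 of 6 fits and the Prkg2 call in 0. Guca1b, an activator of retinal guanylate cyclase, had the smallest adjusted p, at 7.50, 11.0 and 10.03 CPM in rd10, 1065, 1502 and 1082 CPM in GFP and 1257, 1205 and 933 CPM in wild type, a log2 fold change of -6.89 (adjusted p = 2.49e-07) against wild type. Cngb1, a subunit of the rod channel, had -4.40, Pde6g -5.36 and Gucy2f -5.52 against wild type. Of 10 known calpain substrates tested, 2 were higher and 1 lower against wild type and 1 higher and 1 lower against GFP, with medians of 0.35 and 0.26; of all genes tested, 28.4% and 30.2% were called. With library totals 4 were higher and 1 lower in each comparison (medians 0.63 against wild type and 0.58 against GFP), and with the trend on length removed 1 was higher and 2 lower against wild type and 0 higher and 2 lower against GFP (medians 0.13 and 0.095). Ppp3ca, the catalytic subunit of calcineurin, had 0.63 against wild type (adjusted p = 0.00873) and 0.49 against GFP (adjusted p = 0.0243), and its call against GFP ended without rd10 1, rd10 2, GFP 1 or GFP 3 (highest 0.0879) and both calls with the trend on length removed or without the lens-bearing libraries. The Cdk5 activators, p35 (Cdk5r1) and p39 (Cdk5r2), went apart: Cdk5r1 was at 113, 120 and 88.8 CPM in rd10, 74.4, 94.6 and 75.4 CPM in GFP and 75.4, 59.6 and 63.1 CPM in wild type, and Cdk5r2 at 87.0, 83.5 and 116 CPM in rd10, 207, 217 and 240 CPM in GFP and 203, 237 and 173 CPM in wild type. The log2 fold change of Cdk5r1 was 0.70 (adjusted p = 0.0127) against wild type and 0.40 (adjusted p = 0.0993) against GFP, and that of Cdk5r2 was -1.10 against wild type (adjusted p = 0.00170) and -1.21 against GFP (adjusted p = 8.87e-04). Without the lens-bearing libraries the calls against wild type of Cdk5r1 (adjusted p = 0.499) and Cdk5r2 (adjusted p = 0.130) ended, and that of Cdk5r2 against GFP held. In GFP against wild type, 0 genes of these lists passed.

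**Figure D5:**
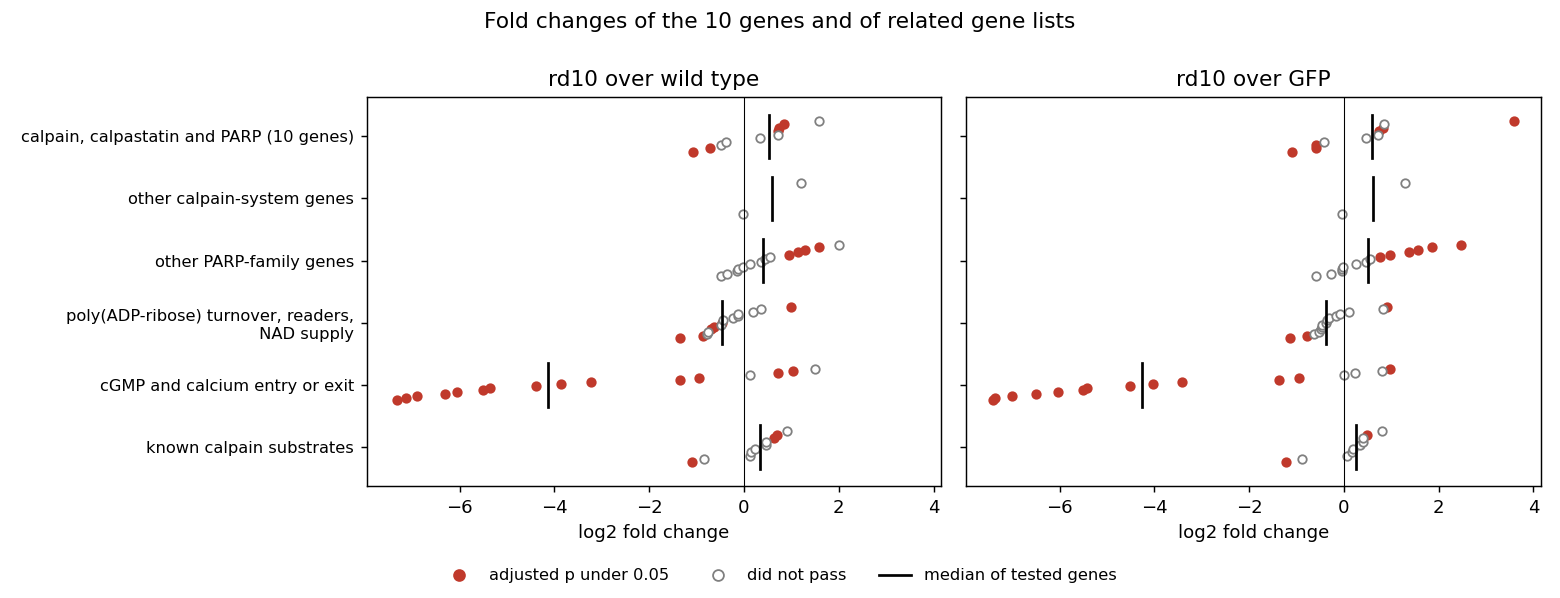
Log2 fold changes (x axis) of the 10 genes and of the tested genes of 5 related lists (y axis) in rd10 against wild type and rd10 against GFP, with 1 point per gene, filled where the adjusted p was under 0.05, and a short line at the list median. The cGMP and calcium list lies lowest, with medians of -4.13 and -4.27, and the filled points of the other PARP genes all lie above 0.

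By correlation of log2 CPM over the 9 libraries (Pearson's r, 11711 genes with a mean of at least 5 CPM, given as a description), the genes most like Capn2 were 1700054N08Rik (0.988), Trim9 (0.987), a ubiquitin ligase of neurons, and BC055402 (0.986). Those most like Capn5 were Pcx (0.993), pyruvate carboxylase, Arl10 (0.988) and Lrrn1 (0.986). For Capn10 they were Laptm4b (0.989), Stx3 (0.989), the syntaxin of photoreceptor ribbon synapses, and Ldha (0.988), lactate dehydrogenase. For Cast they were Pcdhb17 (0.977), Myo1c (0.975) and Wscd1 (0.966), and for Parp2 they were Zfp784 (0.976), Dync1i2 (0.966) and 2700062C07Rik (0.958). The first principal component separates the 3 rd10 from the 6 normal libraries, and these correlations were not computed within the groups.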

How the data were processed

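Gene counts of 9 libraries were taken as the authors deposited them, 1 raw whole-number count per gene and library; the build was mm9, per the submitters' processing notes. The aligner, the counting program, the annotation, and the handling of strand and of reads with several matches are not given in the sources used here. Genes were kept by filterByExpr (minimum count 10, minimum total 15) of edgeR 4.0.16 in R 4.3.3, and scaled by TMM. All 9 libraries entered 1 quasi-likelihood fit with a mean for each group, and p values were adjusted by Benjamini-Hochberg over all genes tested. Ratios were tested by exact permutation in SciPy. DESeq2 1.42.0 served as an alternative, and the length trend was a lowess fit (span 0.3) on merged exon lengths. The procedure was tested on simulated data with changes larger than those of the 10 genes other than Capn3. The simulation had the same spread for all genes and no trend on length, so it does not vouch for the calls given here. Replicates differed by more than sampling noise (chi-square per degree of freedom 13.0 to 76.1), and p values measure the spread between these libraries. Intervals cover counting error only.

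The 10 genes and the lists were chosen with earlier results of these data known. All 10 genes were named; of each list, up to 4 called genes with the smallest adjusted p were named, or, with none called, the most abundant. Capn6, the other tested gene of its list, was named after its value was seen. So were Atp2b1, Atp2b2, Cacna1f, Cacna2d4, Prkg1 and Prkg2 of the cGMP and calcium list. For each of the 10 genes called against wild type, the 3 genes with the highest correlation were named. The lens libraries were set apart by their lens sums, and GFP 2 and wild type 3 were left out together as an alternative chosen after the data were seen.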

Additional observations from a re-analysis of the deposited data

How the results depend on the processing

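Under 15 alternatives each, no log2 fold change of the 10 genes changed its sign in rd10 against wild type or GFP. For genes without overlap between the groups, leaving libraries out could hardly have changed it. The count of genes called ran from 2455 to 3520 with 1 library left out in rd10 against wild type (4055 with all; lowest without rd10 1), from 2603 to 4267 against GFP (4312 with all; lowest without rd10 1) and from 0 to 4 in GFP against wild type (4 without GFP 3). Without the libraries with lens transcripts it was 543, 1846 and 0; few libraries are left there. DESeq2 called 2 genes in GFP against wild type. The replicate numbers do not pair the libraries (same-numbered libraries correlated at -0.372 to 0.357, 4 of 9 over 0.1); with a replicate block 3606, 3908 and 0 genes were called. Among the 10 genes the block ended the calls of Parp2 against wild type (adjusted p = 0.0770) and of Capn7 against GFP (0.0516) and added Cast against GFP (0.0476). Without GFP 2 and wild type 3, 4 of the 10 genes were higher and 3 lower in either rd10 comparison.

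Signs did change among small differences that passed no test, and the cause was not tested. In GFP against wild type, Capn10 was at -0.0095 with library totals; without the lens libraries Capn1 was at 0.44, Capn7 at -0.26, Capns1 at 0.46 and Cast at -0.081; and without GFP 2 and wild type 3 Capn1 was at 0.26, Capn5 at 0.054 and Capn10 at -0.16. With 1 library left out, there, Capn1 ran from -0.34 to 0.16, Capn2 from -0.062 to 0.093, Capn5 from -0.19 to 0.11, Capn7 from -0.0071 to 0.26, Capn10 from -0.065 to 0.13, Capns1 from -0.30 to 0.036 and Cast from -0.11 to 0.38.

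The log2 differences of the ratios passed no exact permutation test in any setting. Leaving out 1 library, Capn1 to Cast ran from -0.45 to 0.17 (rd10 against wild type), 0.061 to 0.25 (rd10 against GFP) and -0.58 to 0.036 (GFP against wild type). In the same order, Capn2 to Cast ran from -0.19 to -0.024, -0.38 to 0.32 and -0.44 to 0.26. Capn2 to Capn1 ran from -0.26 to 0.26, -0.50 to 0.22 and -0.27 to 0.45. Parp1 to Parp2 ran from -0.0092 to 0.53, -0.51 to -0.0040 and 0.16 to 0.82. Without the lens libraries, Capn1 to Cast was 0.63 in rd10 against wild type and 0.51 in GFP against wild type, Capn2 to Cast 0.088 in GFP against wild type, and Capn2 to Capn1 -0.66 in rd10 against wild type and -0.43 in GFP against wild type. Without GFP 2 and wild type 3, Capn1 to Cast was 0.070 in rd10 against wild type, Capn2 to Cast 0.32 in rd10 against GFP, Capn2 to Capn1 0.22 in rd10 against GFP and -0.38 in GFP against wild type, and Parp1 to Parp2 -0.0092 in rd10 against wild type. Against both normal groups together, Capn1 to Cast was 0.029. Depth limits Capn3, with 0 to 34 counts per library.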
